A study of Mus musculus with 9 samples.

Results

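Heme breakdown and iron handling were followed in the mouse colon through 10 genes: Hmox1, Nfe2l2, Hpx, Fth1, Ftl1, Tfrc, Slc40a1, Slc11a2, Slc11a1 and Steap4. They were picked by name, as heme oxygenase with its regulator and the genes of iron storage and transport, and all 10 were found among the 27719 genes of the count table. The colons of 9 C57BL/6J mice were sequenced, 3 mice in each of 3 groups, with 1 Nanopore cDNA library per mouse. Control mice drank distilled water. The DSS group received 2.5% dextran sodium sulfate, a polymer that injures the colon lining and gives a colitis with bleeding, in the drinking water for 7 days. The DSS + EA group received the same DSS and, after 5 days of it, electroacupuncture (EA) of the ST36 points of both legs for 30 minutes a day on 5 days, at 2 Hz and 0.2 mA. Control and DSS mice were restrained for the same time without EA. No group with needles but no current, or with EA but no DSS, is described, and the ages of the mice are not given in the sources used here. The question was which of these genes changed with DSS colitis, and which differed when EA was added.

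Heme set free from red blood cells and dying cells is toxic. Haptoglobin and hemopexin bind hemoglobin and heme in the plasma, macrophages take the complexes up, and heme oxygenase 1 (Hmox1) opens the heme ring to give biliverdin, carbon monoxide and iron. The transcription factor NRF2 (Nfe2l2) switches Hmox1 on and BACH1 holds it off. Iron is stored in ferritin, a shell of heavy (Fth1) and light (Ftl1) chains, and leaves the cell through ferroportin (Slc40a1). It enters through the transferrin receptor (Tfrc), through DMT1 (Slc11a2) and, in phagosomes, through NRAMP1 (Slc11a1), while STEAP4 reduces ferric iron.

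Several of these messages carry an iron-responsive element, a short hairpin bound by the iron regulatory proteins when iron is scarce. At the 5′ end of ferritin and ferroportin messages the bound protein blocks translation, and at the 3′ end of the transferrin receptor message it protects the RNA from decay, so that Tfrc RNA, but not ferritin RNA, is set by this route. The hairpins of both ferritin chains and of Tfrc are shown because the ferritin and Tfrc results below concern messages with opposite hairpin positions. The search used the letters CNNNNNCAGTGN on the transcribed strand, where N is any base but the last N is not G, and the 5 bases before the 6-base loop pair with the 5 after it (G with T allowed). Sequences are from GRCm38 with GENCODE M21 and are printed 5′ to 3′ with the loop in capitals.
Fth1 5′ UTR, chr19:9982733-9982759, + strand: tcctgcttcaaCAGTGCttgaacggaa
Ftl1 5′ UTR, chr7:45459780-45459806, - strand: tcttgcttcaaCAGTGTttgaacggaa
Tfrc 3′ UTR, match 1, chr16:32631220-32631246, + strand: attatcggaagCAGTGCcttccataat
Tfrc 3′ UTR, match 2, chr16:32631599-32631625, + strand: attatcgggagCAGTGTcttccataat
Tfrc 3′ UTR, match 3, chr16:32631664-32631690, + strand: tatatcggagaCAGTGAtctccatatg
Tfrc 3′ UTR, match 4, chr16:32631711-32631737, + strand: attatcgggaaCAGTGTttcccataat

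The 4 Tfrc matches lie within one exon. Slc40a1 has 1 match in its 5′ UTR at chr1:45925466-45925492 on the - strand. Thus 4 of the 10 genes held a match in a UTR, against 0.562% of the 21901 genes searched. Ferritin, ferroportin and Tfrc messages were known beforehand to carry the hairpin, so this contrast was set in advance and is not a result of these data. A match is a description of the sequence, and the other genes lack only these letters.

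Library totals ran from 2627695 to 4235576 counts, so that 3 counts stood for 0.708 to 1.14 CPM, which is a read count divided by the size of its library. Levels below are CPM scaled by TMM factors as well, and a gene rose or fell only where its adjusted p in the edgeR test was under 0.05 over the 12566 genes tested. The colon label was borne out by Car1, the most abundant colonocyte marker, at 632.9 CPM or more in every library. Some libraries stood apart. In DSS mouse 1 the summed neutrophil markers reached 4501 CPM, against 23380 and 27090 CPM in DSS mice 2 and 3. In DSS + EA mice 2 and 3 the summed pancreatic acinar markers (8 genes, Cela2a the most abundant, Cpa1, Cel and Cela3b at 0 in DSS and Cel also in control) reached 23970 and 10690 CPM, against 426 CPM in DSS + EA mouse 1 and at most 260 CPM in the other groups. Nearly all of the sum in control and DSS mice was Cela1, at 41.2 to 259.6 CPM. Cela2a was at 77.3 CPM in DSS + EA mouse 1 and at 0.638 CPM or less in every control and DSS mouse. Every DSS + EA library thus held acinar RNA. Leaving the 8 acinar genes out of the table moved the Hmox1 log2 fold change with EA from −3.74 to −3.78, and its effect on any call is given beside that gene. This step drops only those 8 genes. Whether other RNA of pancreatic tissue changed the levels of the iron genes was not tested.

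With DSS, 7 of the 9 genes tested rose and 1 fell, where 21.5% of all genes tested rose and 19.5% fell. Hmox1, Slc11a1 and Steap4 were also among the 10.2% past the study's own rule, a log2 fold change beyond 2.5 and an unadjusted P under 0.01. The 3 DSS mice lay wholly apart from the 3 controls for 7 of the 9 genes, against 52.0% of all genes. The median log2 fold change was 1.19 over the 9 genes and 0.02 over all genes tested. Hpx was not tested because it had at most 5 counts in any library.

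**Figure D1:**
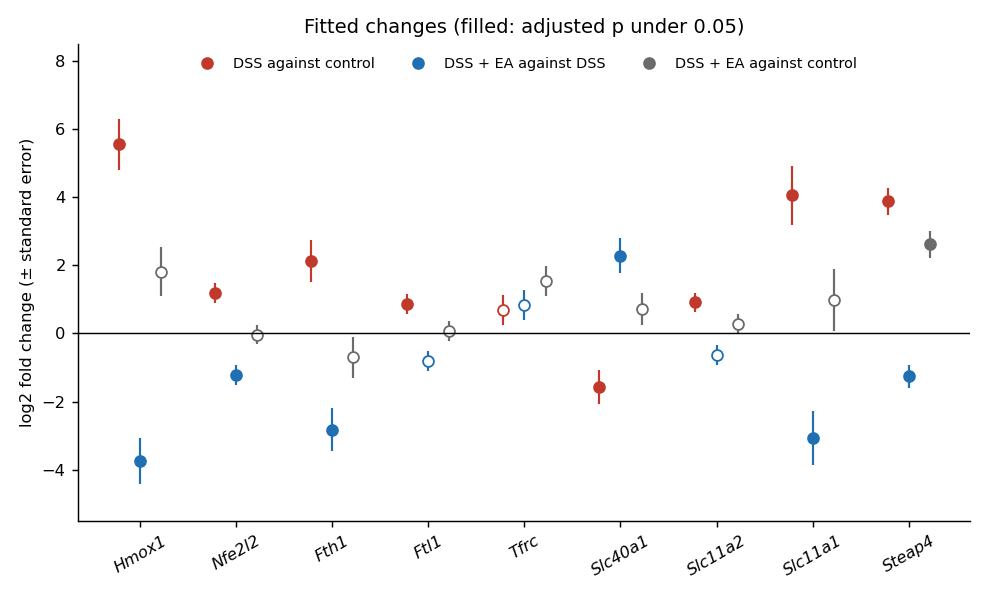
Fitted log2 fold changes (vertical axis) of the 9 genes tested (horizontal axis) in the 3 comparisons, with bars of 1 standard error, filled where the adjusted p was under 0.05. Hmox1 has the largest rise with DSS (5.56), Slc40a1 is the one gene that fell with DSS (−1.57) and rose with EA (2.29), and Steap4 is the one filled point of DSS + EA against control (2.62).

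With EA added to DSS, 5 of the 9 genes were lower and 1 was higher than in DSS mice, where 18.3% of all genes were lower and 17.2% higher. Hmox1, Fth1 and Slc11a1 were among the 6.41% past the study's rule. For 8 of the 9 genes the DSS + EA mice lay wholly apart from the DSS mice, against 47.4% of all genes. The median log2 fold change was −1.23 over the 9 genes and −0.02 over all genes. The DSS mice enter this comparison and the one before it, which are therefore not independent.

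Hmox1 (ENSMUSG00000005413, chr8:75093621-75100589, + strand) was nearly silent in the water-fed colon. Its level was 6.05, 2.97 and 3.80 CPM in the 3 control mice, from 24, 9 and 10 counts. In the DSS mice it was 48.5, 152 and 419 CPM, and in the DSS + EA mice 11.8, 18.5 and 16.1 CPM. The 3 groups did not overlap, every DSS mouse stood above every other mouse, and the DSS mice also differed most among themselves (206.5 ± 191 CPM, SD, n = 3).

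The fitted rise of Hmox1 with DSS was 47.0-fold (log2 fold change 5.56, SE 0.75, edgeR adjusted p = 0.000476). Under EA it was 13.4-fold lower than in DSS mice (log2 fold change −3.74, SE 0.67, edgeR adjusted p = 0.00297). Both calls held when each of the 9 mice was left out, with log2 fold changes of 4.52 to 5.99 and of −4.18 to −2.74. DSS + EA mice still had 3.52 times the control level in the fit, but this difference did not pass the test (log2 fold change 1.81, SE 0.71, edgeR adjusted p = 0.228). It did pass with only those 2 groups in the fit (edgeR adjusted p = 0.01003) and without DSS mouse 1 (edgeR adjusted p = 0.0493). In a bulk tissue, more cells that express Hmox1 and more Hmox1 RNA per cell cannot be told apart, and this holds for every gene below.

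Hmox2 (ENSMUSG00000004070), the constitutive heme oxygenase, gave a contrast within the same pathway. It lay between 43.6 and 62.3 CPM in all 9 mice, and none of the 3 comparisons passed the test (log2 fold changes of 0.04, 0.16 and 0.20). Hpx (ENSMUSG00000030895, chr7:105591613-105600137, - strand), the plasma heme carrier made chiefly by the liver, had 1, 0 and 1 counts in control, 2, 3 and 5 in DSS and 2, 1 and 0 in DSS + EA mice. No difference in Hpx was detectable at this depth.

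**Figure D2:**
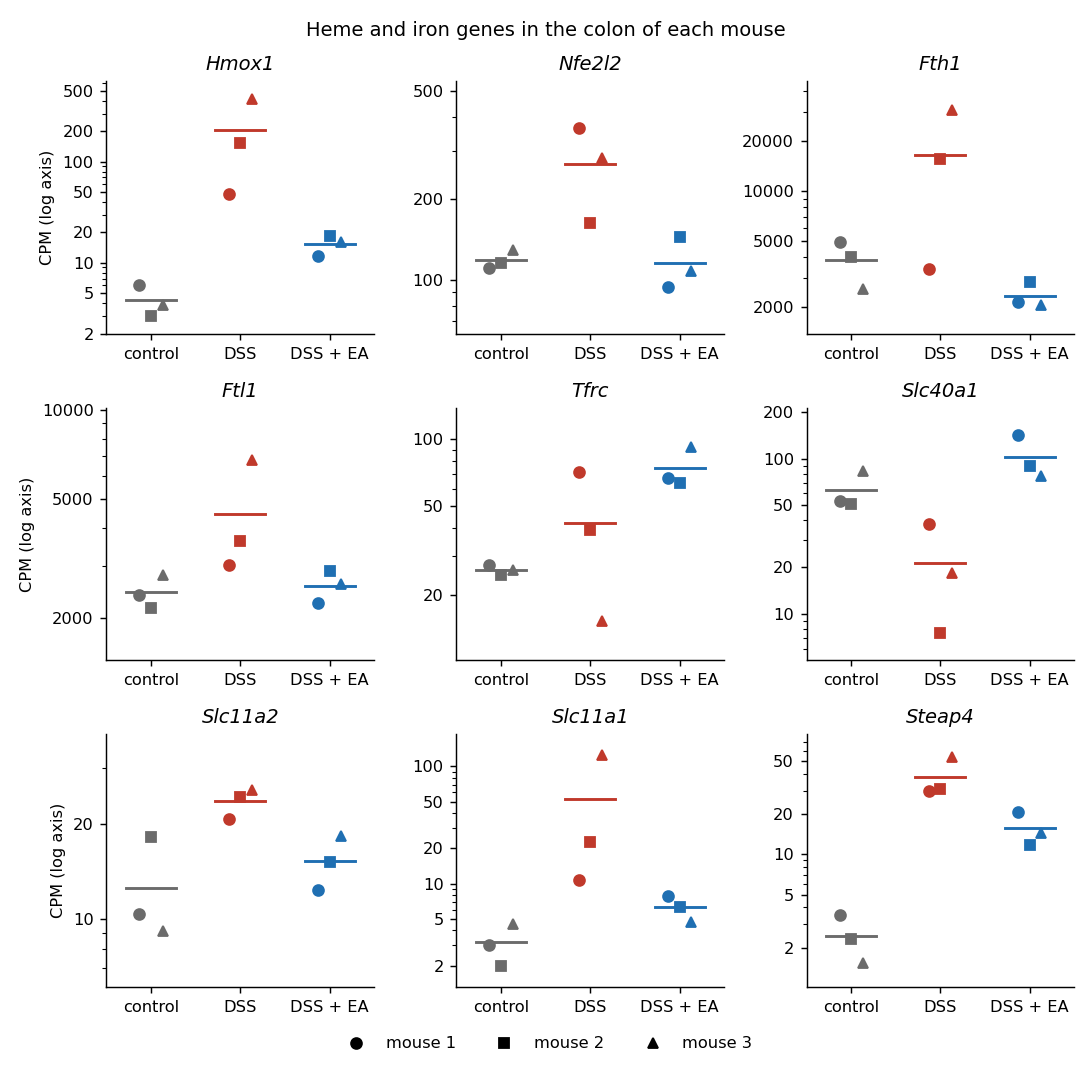
Levels of the 9 genes tested in each mouse, in CPM on log axes that differ between panels, with the group mean as a line and the mouse number as the symbol. DSS mouse 3 is the highest of all 9 mice for Hmox1 (419 CPM), Fth1 (30750 CPM) and Slc11a1 (126 CPM) and the lowest for Tfrc (15.2 CPM), while Slc40a1 is lowest in the DSS mice.

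Nfe2l2 (ENSMUSG00000015839, chr2:75675513-75704641, - strand), which encodes NRF2, changed less. It was at 110, 115 and 129 CPM in control, 364, 162 and 282 CPM in DSS and 94.2, 143 and 108 CPM in DSS + EA mice. The DSS mice lay above all others, and control and DSS + EA mice overlapped. The rise with DSS was 2.28-fold (log2 fold change 1.19, SE 0.29, edgeR adjusted p = 0.00886), and with EA the level was 2.34-fold lower (log2 fold change −1.23, SE 0.29, edgeR adjusted p = 0.00984). Both calls held without each mouse in turn. DSS mouse 1, with the least Hmox1 of its group, had the most Nfe2l2.

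NRF2 binds the antioxidant response element, whose core is TGACNNNGC. Within promoters taken as 250 bases before to 50 bases after the start (RefSeq, GRCm38.p6), 7 of the 10 genes could be matched, with 9 promoters. The core, on either strand, was held by 2 of these 9 promoters, those of Nfe2l2 and Hpx, against 12.4% of 32851 promoters. An element outside these bounds would not be found, so a gene without a match may still carry one. The windows are printed with the core in capitals because a factor's own promoter can carry its element.
Nfe2l2, chr2:75704885-75704913, - strand: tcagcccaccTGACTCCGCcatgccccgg
Hpx, chr7:105600193-105600221, - strand, core on the opposite strand: gccaatattgGCATAGTCAtggaagacaa

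The promoters of Hmox1, Slc40a1 and Slc11a2 were not matched.

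Ferritin heavy chain RNA became one of the most abundant messages of 2 inflamed colons. Fth1 (ENSMUSG00000024661, chr19:9980598-9985098, + strand) was at 4900, 3983 and 2544 CPM in control mice. In DSS mice it was at 3370, 15640 and 30750 CPM, and in DSS + EA mice at 2140, 2811 and 2056 CPM. DSS mice 2 and 3 stood far above all others, but DSS mouse 1 lay within the control range. In DSS mice 2 and 3 Fth1 ranked 2 among all genes by counts, against ranks of 9, 21 and 46 in control mice and 66, 51 and 83 in DSS + EA mice. In DSS mouse 1 it ranked 40.

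Fth1 rose 4.36-fold with DSS (log2 fold change 2.12, SE 0.62, edgeR adjusted p = 0.0206). This call was lost without control mouse 2 (edgeR adjusted p = 0.0612), control mouse 3 (0.0775) or DSS mouse 3 (0.0796), the last of which left a log2 fold change of 1.32. With EA, Fth1 was 7.10-fold lower than in DSS mice (log2 fold change −2.83, SE 0.63, edgeR adjusted p = 0.00814). This call held without each mouse in turn, with log2 fold changes from −3.28 without DSS mouse 1 to −2.06 without DSS mouse 3. DSS + EA against control did not pass the test (log2 fold change −0.71, SE 0.60, edgeR adjusted p = 0.599).

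Ftl1 (ENSMUSG00000050708, chr7:45457944-45459884, - strand), the light chain, moved much less. It was at 2387, 2162 and 2796 CPM in control, 3021, 3619 and 6781 CPM in DSS and 2239, 2869 and 2607 CPM in DSS + EA mice. All DSS mice lay above the other mice, mouse 1 only narrowly. Ftl1 rose 1.83-fold with DSS (log2 fold change 0.87, SE 0.29, edgeR adjusted p = 0.0378), a call that held in 2 of the 9 fits without one mouse. That call was also lost with only the 2 groups in the fit (edgeR adjusted p = 0.07325). With EA the fitted log2 fold change was −0.80 (SE 0.29, edgeR adjusted p = 0.0570), which did not pass the test, and it passed in 4 alternatives, without DSS mouse 1 (edgeR adjusted p = 0.0109), with library totals in place of TMM (0.0393), with a mean of at least 20 counts (0.0445) and with the acinar genes left out (0.0478). A listed Ftl1 copy, Ftl1-ps1, held 177 counts in all, against 94974 for Ftl1, and how reads of the copies were divided is not given in the sources used here.

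The balance of the chains therefore differed between mice. Reads of Fth1 per read of Ftl1, not corrected for transcript length, numbered 2.05, 1.84 and 0.910 in control, 1.12, 4.32 and 4.54 in DSS and 0.956, 0.980 and 0.789 in DSS + EA mice. Only DSS mice 2 and 3 exceeded 4, and DSS mouse 1 lay among the controls. Together the chains took 0.772%, 0.577% and 0.535% of all counts in control, 0.628%, 2.11% and 3.75% in DSS and 0.445%, 0.539% and 0.451% in DSS + EA mice. These ratios and shares are given as a description and were not tested.

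**Figure D3:**
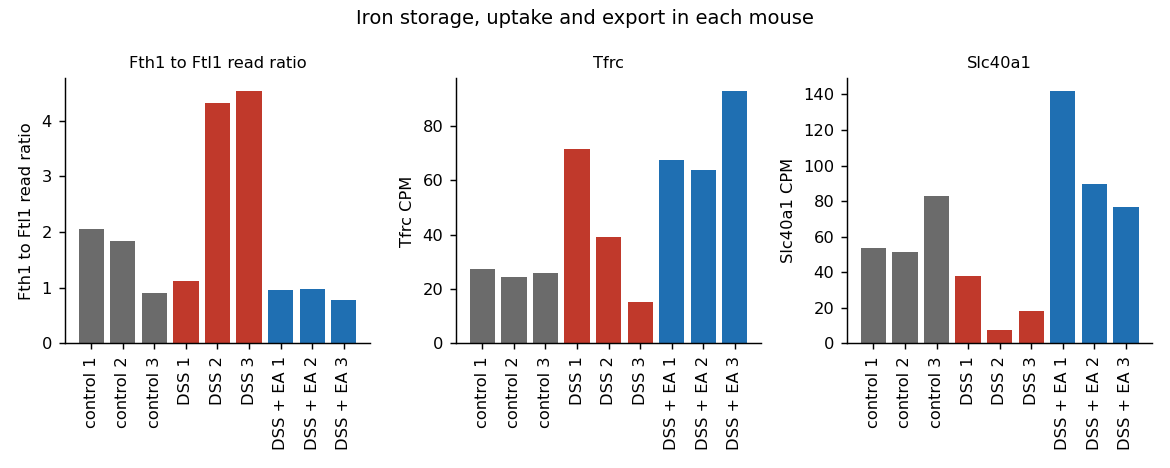
Reads of Fth1 per read of Ftl1 (left), Tfrc level in CPM (middle) and Slc40a1 level in CPM (right), one bar per mouse. Among the DSS mice the ratio goes from 1.12 in mouse 1 to 4.54 in mouse 3 while Tfrc goes from 71.5 to 15.2 CPM, and Slc40a1 is at most 38.0 CPM in DSS mice and at least 51.1 CPM in all others.

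Of the uptake genes, Tfrc (ENSMUSG00000022797, chr16:32608920-32632794, + strand) was the only one tested here whose DSS mice fell on both sides of the controls. Control mice had 27.2, 24.4 and 25.9 CPM, DSS mice 71.5, 39.2 and 15.2 CPM and DSS + EA mice 67.3, 63.7 and 92.8 CPM. Among the 3 DSS mice the order of Tfrc was the reverse of that of Fth1, and all DSS + EA mice lay above all controls. The summed colonocyte markers of DSS mice 1, 2 and 3, at 4574, 1547 and 854 CPM, had the order of Tfrc. Of these markers, Epcam did not keep it and was highest in mouse 2. What set this order was not tested. For Tfrc, neither DSS against control (log2 fold change 0.70, SE 0.44, edgeR adjusted p = 0.228) nor DSS + EA against DSS (0.83, SE 0.43, edgeR adjusted p = 0.153) passed the test.

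For Tfrc in DSS + EA against control the fitted difference was 2.89-fold (log2 fold change 1.53, SE 0.44, edgeR adjusted p = 0.0989). It passed the threshold in DESeq2 (adjusted p = 0.0229) and with only those 2 groups in the edgeR fit (adjusted p = 0.00226), where the spread of the DSS mice is not used. It also passed without DSS mouse 1 (edgeR adjusted p = 0.0238) and without DSS mouse 3 (0.0139). Single DSS mice decided the calls of the other comparisons too. For Tfrc in DSS against control the log2 fold change was 1.10 without DSS mouse 3, which passed (edgeR adjusted p = 0.0164), and 0.06 without DSS mouse 1 (edgeR adjusted p = 0.899). In DSS + EA against DSS it was 1.47 without DSS mouse 1, which passed (edgeR adjusted p = 0.00942), and 0.41 without DSS mouse 3, which did not.

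Slc11a2 (ENSMUSG00000023030, chr15:100387898-100425072, - strand), the ferrous iron importer DMT1, was low throughout, at 10.3, 18.1 and 9.13 CPM in control, 20.8, 24.4 and 25.7 CPM in DSS and 12.4, 15.2 and 18.3 CPM in DSS + EA mice. The DSS mice were the highest, by a small margin over control mouse 2 and DSS + EA mouse 3. It rose 1.88-fold with DSS (log2 fold change 0.91, SE 0.29, edgeR adjusted p = 0.0286), a call kept in 5 of the 9 fits without one mouse, and the difference with EA did not pass (log2 fold change −0.63, SE 0.28, edgeR adjusted p = 0.109).

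Slc11a1 (ENSMUSG00000026177, chr1:74375195-74386062, + strand), the metal transporter of phagosomes in macrophages and neutrophils, was at 3.03, 1.98 and 4.56 CPM in control, 10.9, 22.9 and 126 CPM in DSS and 7.85, 6.30 and 4.72 CPM in DSS + EA mice. The groups did not overlap, but control mouse 3 and DSS + EA mouse 3 nearly met, at 12 and 15 counts. DSS + EA against control did not pass the test (log2 fold change 0.992, SE 0.915, edgeR adjusted p = 0.635). DSS mouse 3 stood far above the rest. The rise with DSS was 16.7-fold (log2 fold change 4.06, SE 0.87, edgeR adjusted p = 0.00492), with a log2 fold change of 2.43 without DSS mouse 3. With EA the level was 8.38-fold lower than in DSS mice (log2 fold change −3.07, SE 0.80, edgeR adjusted p = 0.0154). This fell to −1.46 without DSS mouse 3 and lost its call without DSS + EA mouse 3 (edgeR adjusted p = 0.0602).

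Steap4 (ENSMUSG00000012428, chr5:7960457-7982213, + strand), a ferric reductase, stood far above every control in all DSS mice. Its level was 3.53, 2.31 and 1.52 CPM in control, 29.7, 30.8 and 53.3 CPM in DSS and 20.8, 11.9 and 14.5 CPM in DSS + EA mice. The order DSS, DSS + EA, control held without overlap. Steap4 rose 14.7-fold with DSS (log2 fold change 3.88, SE 0.40, edgeR adjusted p = 0.000121) and was 2.40-fold lower with EA than in DSS mice (log2 fold change −1.26, SE 0.33, edgeR adjusted p = 0.0154), a call lost without DSS + EA mouse 2 (edgeR adjusted p = 0.0605) or 3 (0.0589).

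Slc40a1 (ENSMUSG00000025993, chr1:45908068-45926523, - strand), which encodes ferroportin, the cell's iron exporter, went the other way. Control mice had 53.7, 51.1 and 82.9 CPM, DSS mice 38.0, 7.55 and 18.3 CPM and DSS + EA mice 142, 89.7 and 76.8 CPM. Every DSS mouse lay below every other mouse, and control and DSS + EA mice overlapped. Slc40a1 fell 2.97-fold with DSS (log2 fold change −1.57, SE 0.50, edgeR adjusted p = 0.0290), a call kept in 5 of the 9 fits without one mouse, where the log2 fold change ran from −2.32 without DSS mouse 1 to −1.135 without DSS mouse 2. It was lost with only the 2 groups in the fit (edgeR adjusted p = 0.0551). With EA it was 4.88-fold higher than in DSS mice (log2 fold change 2.29, SE 0.50, edgeR adjusted p = 0.00744). That call held without each mouse in turn, with log2 fold changes from 1.86 without DSS mouse 2 to 3.05 without DSS mouse 1.

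Against control, 1 of the 9 genes was higher in DSS + EA mice and 0 were lower by edgeR, where 3.00% of all genes were higher and 0.637% lower. At an unadjusted p under 0.05 0 of the 9 were lower, and DESeq2 called 0 lower and 2 higher, Steap4 and Tfrc. The edgeR call was Steap4, at 6.15 times the control level (log2 fold change 2.62, SE 0.40, edgeR adjusted p = 0.00785), which was also within the 2.08% past the study's rule and held without each mouse in turn. The median log2 fold change was 0.72 over the 9 genes and 0.00 over all genes.

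Markers of blood and myeloid cells moved with these genes. The summed erythroid markers (7 genes in the table, Hbb-bs the most abundant, Slc4a1 at 0 in all 9 libraries and Hba-a1 in control and DSS + EA mice) were at 112, 117 and 95.4 CPM in control, 3789, 1423 and 1846 CPM in DSS and 212, 153 and 144 CPM in DSS + EA mice. All 4 erythroid markers tested (Hba-a2, Hbb-bs, Hbb-bt and Alas2) rose with DSS and were lower with EA than in DSS mice. DSS mouse 1 had the most erythroid RNA of the DSS mice and the least Hmox1, Fth1 and Slc11a1.

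The summed neutrophil markers (10 genes, S100a8 the most abundant, Trem1 at 0 in control) were at 134, 159 and 23.6 CPM in control, 4501, 23380 and 27090 CPM in DSS and 1491, 1212 and 1598 CPM in DSS + EA mice. All 9 tested rose with DSS, and 7 were lower with EA. In control mice most of this sum was Ly6g, at 127, 148 and 16.35 CPM, with S100a8 at 1.98 CPM or less, and in DSS + EA mice Ly6g gave 502.5, 548.6 and 1028 CPM of it. The summed monocyte and macrophage markers (10 genes, Lyz2 the most abundant, none at 0) were at 516, 541 and 520 CPM in control, 1645, 1936 and 3083 CPM in DSS and 1179, 1042 and 1186 CPM in DSS + EA mice, with 9 of 10 higher under DSS and 7 lower with EA. Within the DSS group the order of mice by both myeloid sums was that of Hmox1, Fth1, Ftl1, Slc11a2, Slc11a1 and Steap4, mouse 3 highest and mouse 1 lowest. Single markers did not all keep that order. C1qa, a macrophage complement gene, was at 358, 223 and 213 CPM in DSS mice 1, 2 and 3 and Ly6g at 2149, 1287 and 1395 CPM, both highest in mouse 1, while S100a9 (398, 5162 and 3971 CPM) and Mrc1 were highest in mouse 2.

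The summed colonocyte markers (8 genes, none at 0 in all mice of a group) were at 12910, 8392 and 24740 CPM in control, 4574, 1547 and 854 CPM in DSS and 9556, 12830 and 6251 CPM in DSS + EA mice. Of the 8, 7 fell with DSS and 7 were higher with EA than in DSS mice. The summed smooth muscle markers (5 genes, Acta2 the most abundant, none at 0) lay between 2207 and 2656 CPM in control, 895 and 1682 CPM in DSS and 1643 and 1738 CPM in DSS + EA mice. The hepatocyte markers (7 genes, Serpina1a and Fgb at 0 in control) stayed at or below 74.9 CPM in sum. Ttr was the most abundant of them, Fgb had 86 counts in DSS mouse 1, and Alb had at most 7 counts in a library. How far the share of each cell type set the levels of the iron genes was not tested.

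**Figure D4:**
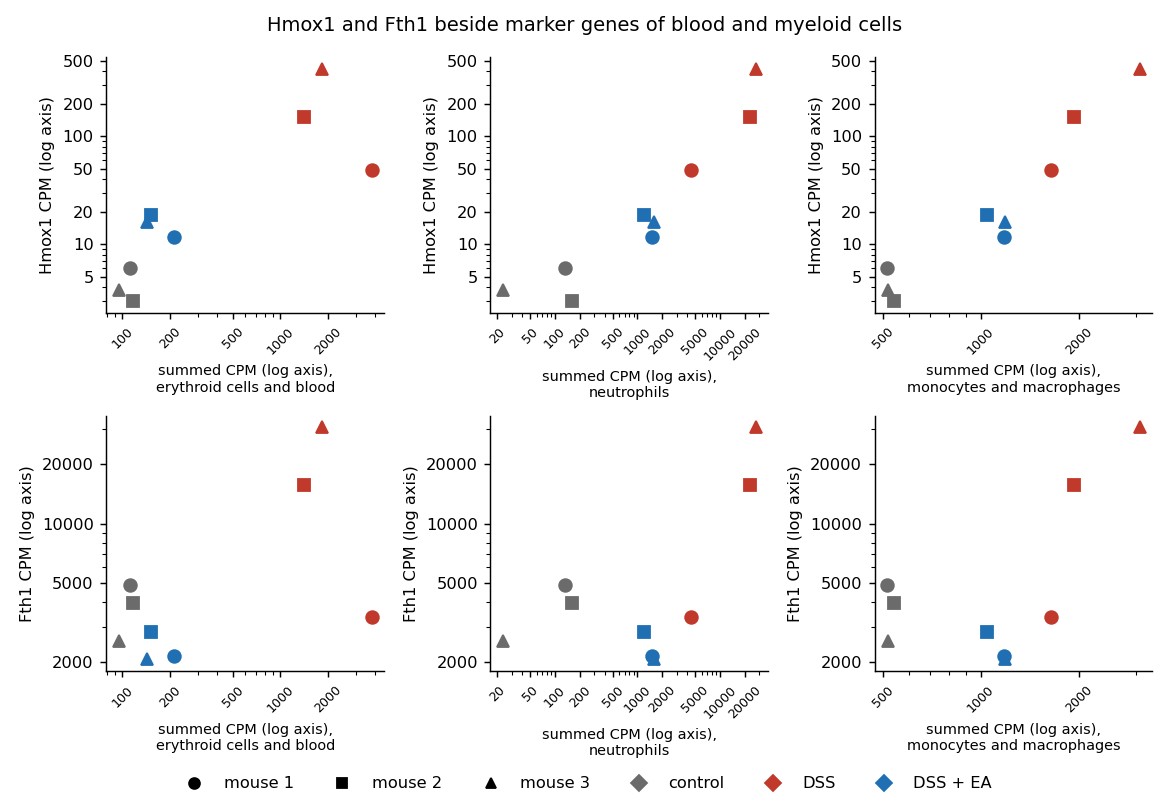
Hmox1 (top) and Fth1 (bottom) in CPM against the summed CPM of erythroid, neutrophil and monocyte and macrophage markers, one point per mouse, all axes log. DSS mouse 1 has the highest erythroid sum (3789 CPM) but the lowest Hmox1 of the DSS mice (48.5 CPM), while for both myeloid sums the DSS mice keep the order of Hmox1.

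Pathway genes in 10 lists, 78 genes in all with 67 tested and the 9 genes above among them, placed these changes in the pathway. With DSS 31 of the 67 rose and 8 fell, beside 21.5% and 19.5% of all genes tested. With EA 25 were lower and 8 higher than in DSS mice, beside 18.3% and 17.2% of all genes. In DSS + EA against control 5 were higher (Hp, Steap4, Cp, Lcn2 and Pgd) and 0 lower by edgeR (Uros and Me1, 2 genes, lower at an unadjusted p under 0.05, and 0 by DESeq2). Lists are described by counts, to be read against these shares, with no test over a list. Genes given beside the rule for named genes were chosen after their values were seen.

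In heme breakdown and heme transport, 8 of 11 genes rose with DSS and 2 fell. Haptoglobin (Hp), which binds free hemoglobin, was at 3.03, 5.61 and 8.74 CPM in control mice and at 999 CPM or more in every DSS mouse. Its rise was 243-fold (log2 fold change 7.92, SE 0.54, edgeR adjusted p = 1.71e-05), and in DSS + EA mice, at 111, 147 and 84.7 CPM, it was 12.1-fold lower than in DSS mice but still 20.1 times the control level (edgeR adjusted p = 0.00232). Lrp1, the receptor that takes up hemopexin with its heme, rose 5.27-fold with DSS and was 4.59-fold lower with EA.

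Further along the same route, Cd163, the macrophage receptor for haptoglobin with hemoglobin, was at 2.27, 4.62 and 2.28 CPM in control, 33.8, 41.8 and 67.8 CPM in DSS and 5.13, 14.8 and 5.35 CPM in DSS + EA mice. It rose 15.6-fold with DSS and was 5.73-fold lower with EA. Slc48a1, which carries heme out of lysosomes, rose with a log2 fold change of 1.62 (edgeR adjusted p = 0.0132) and was lower with EA (log2 fold change −1.80, edgeR adjusted p = 0.0105). The biliverdin reductases, the next step after heme oxygenase, rose less, Blvra with a log2 fold change of 0.72 (edgeR adjusted p = 0.0240) and Blvrb of 0.71 (edgeR adjusted p = 0.0291). The genes that fell were transporters, Abcg2, which pumps out porphyrins (log2 fold change −1.62, edgeR adjusted p = 0.00959), and Slc46a1, a folate and heme carrier (−1.49, edgeR adjusted p = 0.0184). Both were higher with EA than in DSS mice.

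Of the 8 enzymes of heme synthesis, Uros was the one called with DSS. It fell from 14.1 to 16.5 CPM in control mice to 2.37 to 3.51 CPM in DSS mice (log2 fold change −2.38, SE 0.26, edgeR adjusted p = 0.000156). With EA Uros was higher than in DSS mice (log2 fold change 1.79, edgeR adjusted p = 0.0012), as was Alas1, the first enzyme of the pathway (0.89, edgeR adjusted p = 0.0375). Alas1 stood at 235, 278 and 332 CPM in DSS + EA mice and at 141, 165 and 176 CPM in control mice, a difference that did not pass the test (edgeR adjusted p = 0.183).

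Around ferritin, the iron chaperone Pcbp1 fell with DSS (log2 fold change −0.66, edgeR adjusted p = 0.0188) and Pcbp2, another chaperone, was lower with EA (−0.71, edgeR adjusted p = 0.0176). Ncoa4, the receptor that brings ferritin to the lysosome, was higher with EA than in DSS mice (log2 fold change 0.86, edgeR adjusted p = 0.0371). Of the iron regulatory list, Aco1 and Ireb2, which encode the hairpin-binding proteins, passed the test in none of the 3 comparisons by edgeR, and Fbxl5, which marks IREB2 for decay, rose with DSS (log2 fold change 1.195, edgeR adjusted p = 0.0385). Fbxl5 in DSS mouse 1, at 35.75 CPM, lay within the control range of 29.0 to 42.2 CPM.

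In uptake and reduction 6 of 9 genes rose with DSS and 1 fell. Slc39a14, a zinc transporter family member that also imports free iron, was at 4.54, 3.30 and 6.84 CPM in control, 27.4, 56.9 and 73.4 CPM in DSS and 6.95, 5.56 and 3.46 CPM in DSS + EA mice. It rose 10.8-fold with DSS (log2 fold change 3.43, SE 0.43, edgeR adjusted p = 0.000332) and was 9.82-fold lower with EA (edgeR adjusted p = 0.00073). Steap3, the endosomal reductase that works with the transferrin receptor, was the member that fell (log2 fold change −1.15, edgeR adjusted p = 0.0035), and it was higher with EA (0.98, edgeR adjusted p = 0.00984).

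In export and its control 2 of 5 genes rose with DSS and 1, Slc40a1, fell. Ceruloplasmin (Cp), the ferroxidase that loads exported iron onto transferrin, was at 3.78, 4.62 and 3.80 CPM in control, 108, 142 and 103 CPM in DSS and 20.5, 30.4 and 20.1 CPM in DSS + EA mice. It rose 28.8-fold (log2 fold change 4.85, SE 0.27, edgeR adjusted p = 7.13e-06), was 4.99-fold lower with EA and stayed 5.77 times the control level in DSS + EA mice (edgeR adjusted p = 0.00185). Its membrane-bound relative of the gut, Heph, did not pass with DSS (log2 fold change −1.07, edgeR adjusted p = 0.0619) and was higher with EA than in DSS mice (1.502, edgeR adjusted p = 0.0190). Epas1, the hypoxia factor that drives iron uptake genes in the gut, rose with DSS (log2 fold change 2.09, edgeR adjusted p = 0.00122) and was lower with EA (−2.21, edgeR adjusted p = 0.00153). Hamp, the ferroportin-blocking hormone hepcidin, had too few counts to test.

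Both genes tested that withhold iron from bacteria rose with DSS and were lower with EA. Lcn2, which captures bacterial siderophores, was at 6.30, 2.64 and 6.84 CPM in control mice and at 533 CPM or more in every DSS mouse, a 484-fold rise (log2 fold change 8.92, SE 0.89, edgeR adjusted p = 0.000109), and was 18.9-fold lower with EA. Ltf, the neutrophil iron binder lactoferrin, had 0 counts in all control mice and 9.89, 141 and 51.4 CPM in DSS mice. The mean of the DSS mice, 67.3 CPM, was 69.9 times the mean floor of 3 counts per control library. In DSS + EA mice Ltf was at 4.53, 1.85 and 5.04 CPM, lower than in DSS mice (log2 fold change −4.12, edgeR adjusted p = 0.0110).

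In mitochondria, the iron importers Slc25a37 and Slc25a28 each rose with a log2 fold change of 1.64 (edgeR adjusted p = 0.0181 and 0.0147) and were lower with EA. Slc25a37 in DSS mouse 1, at 7.66 CPM, lay within the control range of 4.79 to 9.13 CPM. Nfs1, the sulfur donor of iron-sulfur clusters, fell slightly with DSS (log2 fold change −0.56, edgeR adjusted p = 0.0436).

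**Figure D5:**
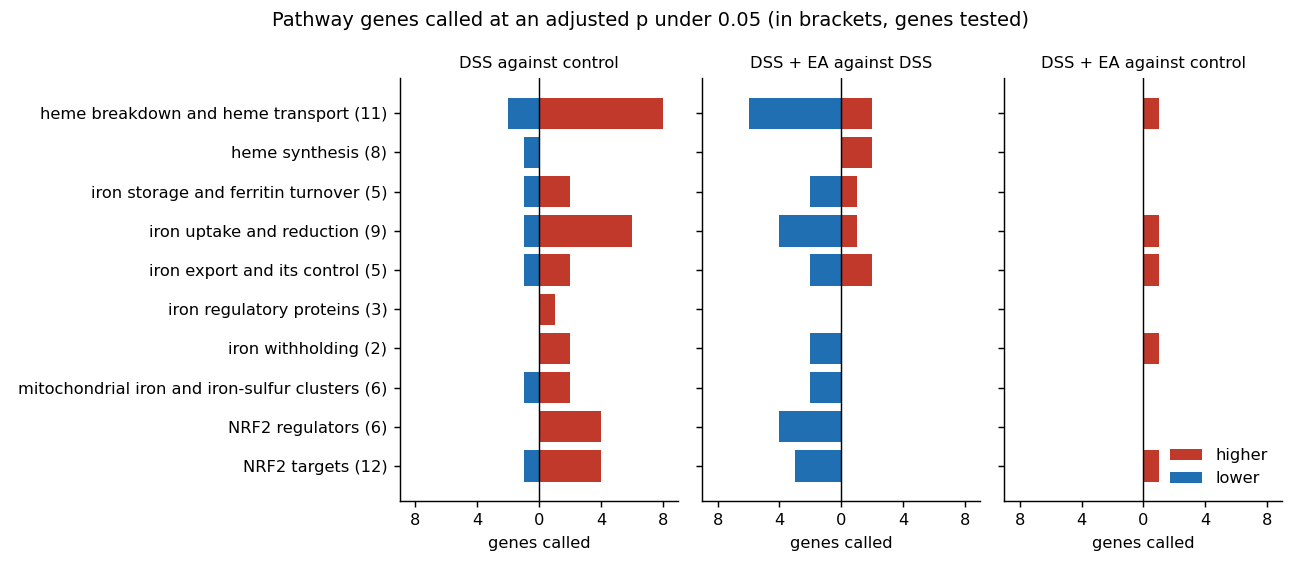
Genes higher (right of 0) and lower (left of 0) at an adjusted p under 0.05 in each pathway list and comparison, with the number tested in brackets. Heme breakdown and heme transport has 8 genes higher with DSS and 6 lower with EA, heme synthesis has 1 lower with DSS, and DSS + EA against control has no more than 1 gene called in any list.

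Of the 6 regulators around NRF2, 4 rose with DSS and 4 were lower with EA. The same 4 genes, Nfe2l2, Bach1, Mafg and Maff, made both counts. Mafg in DSS mouse 1, at 12.13 CPM, lay below control mouse 1, at 12.61 CPM. Mafg and Maff encode small partners with which NRF2 and BACH1 bind DNA. Bach1, the repressor of Hmox1, was at 11.35, 8.58 and 11.8 CPM in control and 16.0, 33.4 and 22.9 CPM in DSS mice (log2 fold change 1.19, SE 0.30, edgeR adjusted p = 0.0110). Bach1 was at 12.99, 9.63 and 9.44 CPM in DSS + EA mice (log2 fold change against DSS −1.18, edgeR adjusted p = 0.0143). Activator and repressor thus rose by nearly the same fitted amount. Keap1, which marks NRF2 for decay, did not pass the test (log2 fold change −0.68, edgeR adjusted p = 0.0974).

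Of 12 NRF2 target genes outside iron handling, 4 rose with DSS, 1 fell and 7 did not pass, numbers not far from the 21.5% higher and 19.5% lower of all genes tested. Slc7a11, the cystine importer, rose 26.7-fold (log2 fold change 4.74, SE 0.77, edgeR adjusted p = 0.0012), from at most 3.30 CPM in control mice to 14.0, 50.2 and 110 CPM. Gclc, the rate-limiting enzyme of glutathione synthesis, rose 3.06-fold in DSS mice of nearly equal level (118, 106 and 104 CPM, edgeR adjusted p = 0.00027), and Gsr, which regenerates glutathione, rose with a log2 fold change of 1.92 (edgeR adjusted p = 0.00376). These 3 genes were lower with EA than in DSS mice. G6pdx, the entry enzyme of the pentose phosphate pathway, rose with a log2 fold change of 0.93 (edgeR adjusted p = 0.0118) and did not pass with EA (−0.44, edgeR adjusted p = 0.168). Me1, which makes NADPH, fell (log2 fold change −1.10, edgeR adjusted p = 0.0436). Nqo1, the quinone reductase often read as the mark of NRF2 activity, was at 20.7, 16.2 and 25.9 CPM in control and 25.5, 12.7 and 12.7 CPM in DSS mice and did not pass (log2 fold change −0.30, edgeR adjusted p = 0.468).

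The genes whose pattern over the 9 libraries came nearest to that of Hmox1, by the root mean square difference of log2 CPM centred on the gene's mean, were Msr1 (0.439), Alox5ap (0.513) and Emb (0.517). Msr1 (ENSMUSG00000025044), a scavenger receptor of macrophages, was at 1.77, 1.32 and 1.14 CPM in control, 26.8, 50.2 and 123 CPM in DSS and 7.25, 11.1 and 10.4 CPM in DSS + EA mice. Alox5ap, the partner of 5-lipoxygenase in leukotriene synthesis, was at 101, 494 and 912 CPM in DSS mice, and Emb, a membrane glycoprotein, at 26.5, 72.9 and 132 CPM. All of them share with Hmox1 the order of the DSS mice, mouse 3 highest. These likenesses are descriptions over libraries that share groups and cell makeup.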

How the data were processed

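Colon RNA of 9 mice was sequenced as PCR-amplified full-length cDNA on an Oxford Nanopore PromethION, per the labels. The authors deposited whole-number read counts per gene, not normalized, and the submitters' processing notes name the genome build mm10. The aligner, the counting tool and the use of strand are not given in the sources used here, so overlapping genes and near-identical copies may share reads. Of 27733 lines in the table, 14 held no counts. No 2 libraries were identical. The labels do not say that mice were independent in litter or cage.

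The test was edgeR 4.0.16 in R 4.3.3 (TMM, filterByExpr by group, prior count 0.125, quasi-likelihood F test, Benjamini-Hochberg over 12566 genes) in one fit of the 3 groups, without a replicate term. Standard errors are the log2 fold change divided by the square root of F. DESeq2 1.42.0, other scalings, filters, thresholds and fits without each mouse were alternatives, and leaving out the acinar genes was added after seeing the data. The functions were tested on simulated data. Figures used Python 3.11.15, pandas 2.3.3 and matplotlib 3.10.9. Columns of fold changes or p-values by the authors were not used.

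The genes and the lists were chosen with earlier results of these data known. Named are the 10 genes, in each list up to 2 called genes per direction, by smallest P, in DSS against control and likewise for DSS + EA against DSS, the most abundant gene of each marker list and its genes at 0 in a group, and the 3 genes most like Hmox1. Hjv stands in the table as Hfe2, and Ahsp was not found there. The values of 1 marker gene are not reported here. Tests of 3 against 3 mice allow no exact permutation p under 0.1.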

Additional observations from a re-analysis of the deposited data

How the results depend on the processing

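Of the 9 genes tested, main counts were 7 higher and 1 lower with DSS, 1 higher and 5 lower with EA against DSS, and 1 higher with EA against control. The study's rule (log2 fold change beyond 2.5, P under 0.01) gave 3 and 0 with DSS and 0 and 3 with EA against DSS. An adjusted p under 0.01 gave 4 higher and 0 lower with DSS, and 3 lower with EA against DSS. Fits of only the 2 groups compared gave 6 higher and 0 lower with DSS and 3 higher in DSS + EA against control, and DESeq2 gave 2 higher there. The cause was not tested. Without each mouse in turn the counts ran from 4 to 7 higher and 0 to 1 lower with DSS, from 1 to 2 higher and 3 to 6 lower with EA against DSS, and from 1 to 3 higher in DSS + EA against control. The sign reversed in DSS + EA against control for 2 genes near 0 and past no test. Nfe2l2 was 0.002 without a filter on low counts and −0.224 to 0.056 without one mouse, and Ftl1 was −0.011 to 0.180.

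Mice of different groups share replicate numbers, but the labels do not say that a number pairs them, and correlations of same-numbered deviations ran from −0.157 to 0.097. With the replicate block, Fth1 lost its call with DSS (log2 fold change 1.89, adjusted p = 0.0716), and no other gene's call changed. Other scalings moved the median of all genes by less than 0.1 on the log2 scale. At this depth Hpx and Hamp, which did not pass the filter on low counts, gave no usable difference.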

Other observations

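Values of a few further list genes are given here. Iscu, the scaffold of iron-sulfur clusters, was at 49.2 CPM in DSS + EA mouse 1 and at 7.78 and 7.55 CPM in the other DSS + EA mice, and at 44.2 CPM in DSS mouse 2 against 20.1 and 20.7 CPM in its group. Ly6g, a neutrophil surface marker, had 504, 449 and 43 counts in control mice, where S100a9 had 0, 2 and 1. Pgd, an enzyme of the pentose phosphate pathway, was at 160, 184 and 204 CPM in DSS + EA mice and at 107, 97.0 and 113 CPM in control mice, higher by a log2 fold change of 0.79 (SE 0.17, edgeR adjusted p = 0.0380), although DSS against control did not pass (0.45, edgeR adjusted p = 0.0599). Prdx1, the most abundant gene of the NRF2 targets, lay between 1417 and 2211 CPM in all 9 mice, and none of its 3 comparisons passed the edgeR test.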
